A study of Mus musculus with 12 samples.

Results

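The genes described here are 9 mouse genes that B cells use to build and relay their antigen receptor or to make antibody: Cd79a, Cd79b, Ms4a1, Blnk, Cd22, Blk, Spib, Jchain and Pax5. They were found by matching the transcript accession of each non-control array probe to a RefSeq gene symbol. All 9 had a probe, 11 probes in all because Cd22 and Jchain had 2 each, among 14705 genes tested and 41174 distinct probes. Their transcripts were read on 12 one-colour Agilent arrays, each hybridised with RNA of helper T cells taken from C57BL/6 mice at 7 weeks of age. The 4 groups were Dgcr8-deficient cells transfected with miR-29b, Dgcr8-deficient cells transfected with a control miRNA, wild-type cells transfected with miR-29 inhibitors and wild-type cells transfected with control inhibitors. There were 3 arrays per group. Mice carry the numbers 2, 3 and 4 in either genotype, and the cells of a mouse were divided between both transfections of its genotype. In all groups the cells had been stimulated for 65 hours with antibodies to CD3 and CD28 and then kept in IL-2 for 48 hours. Electroporation took place on day 1 and again on day 4, and RNA came from day 5 cells, 24 hours after transfection. How Dgcr8 was removed, and in which cells, is not given in the sources used here. The controls of the genotypes carried different control oligonucleotides, so genotype and type of control cannot be told apart in the comparison between them.

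The B cell receptor is a membrane immunoglobulin joined to a signalling pair, CD79A and CD79B, whose tails are phosphorylated by Src-family kinases such as BLK. The adaptor BLNK then links the kinase SYK to BTK and phospholipase C gamma 2, while CD22 dampens the signal and CD20, the product of Ms4a1, sits beside the receptor. Pax5 commits precursors to the B lineage and is known to drive Cd79a and Blnk, Spib encodes an ETS factor of B cells and plasmacytoid dendritic cells, and the J chain links the units of secreted IgM and IgA. These genes are low in conventional helper T cells. Dgcr8 is the partner of Drosha in microRNA maturation, and miR-29 is a family of microRNAs that T cells make.

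The transfected microRNA and its family share 1 seed, shown because it is the part that pairs with target transcripts. The mature sequences are from RefSeq on GRCm38.p6, and capitals mark the seed, bases 2 to 8, which is AGCACCA in all of them.
miR-29b-3p: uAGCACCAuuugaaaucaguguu
miR-29a-3p: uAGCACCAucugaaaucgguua
miR-29c-3p: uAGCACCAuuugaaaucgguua

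RefSeq promoter sequences, from 250 bases before to 50 bases after an annotated start on GRCm38.p6, were matched for 6 of the 9 genes, namely Cd79a, Blnk, Cd22, Spib, Jchain and Pax5. That start was the outermost base of the gene for Cd79a, Blnk, Jchain and Pax5, and lay 16 bases inside the gene for Spib. For Cd22 it lay 1314 bases inside the gene, so the Cd22 window does not hold the gene's outermost start. Those of Blnk and Cd22 are shown because they held a motif that few promoters hold, that of Jchain because its difference between genotypes was the largest of the 9, and that of Pax5 because no difference was called for it. Motifs were searched on both strands, and capitals mark the matches.
Blnk, chr19:40994172-40994471, minus strand: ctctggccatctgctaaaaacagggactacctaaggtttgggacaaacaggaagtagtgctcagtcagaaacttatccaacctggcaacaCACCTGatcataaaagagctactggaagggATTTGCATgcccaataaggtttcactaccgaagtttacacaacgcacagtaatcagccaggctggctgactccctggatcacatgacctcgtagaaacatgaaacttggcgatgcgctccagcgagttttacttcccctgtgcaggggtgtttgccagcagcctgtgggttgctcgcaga
Cd22, chr7:30878979-30879278, minus strand: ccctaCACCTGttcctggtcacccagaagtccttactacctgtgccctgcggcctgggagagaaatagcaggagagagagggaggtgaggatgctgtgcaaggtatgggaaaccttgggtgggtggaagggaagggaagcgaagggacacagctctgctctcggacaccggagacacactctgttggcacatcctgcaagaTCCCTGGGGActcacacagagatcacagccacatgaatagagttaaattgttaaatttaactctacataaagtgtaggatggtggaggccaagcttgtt
Jchain, chr5:88527848-88528147, minus strand: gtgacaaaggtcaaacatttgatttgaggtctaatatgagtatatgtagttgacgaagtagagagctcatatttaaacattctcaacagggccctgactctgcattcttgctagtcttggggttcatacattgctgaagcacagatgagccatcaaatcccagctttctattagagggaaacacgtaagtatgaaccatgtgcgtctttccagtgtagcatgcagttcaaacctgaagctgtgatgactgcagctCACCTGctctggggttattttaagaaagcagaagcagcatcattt
Pax5, chr4:44710645-44710944, minus strand: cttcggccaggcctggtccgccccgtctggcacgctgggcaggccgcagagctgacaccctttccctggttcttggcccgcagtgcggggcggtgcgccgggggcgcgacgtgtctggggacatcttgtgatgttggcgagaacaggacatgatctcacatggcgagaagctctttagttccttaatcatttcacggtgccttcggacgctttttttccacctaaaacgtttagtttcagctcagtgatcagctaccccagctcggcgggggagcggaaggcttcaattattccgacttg

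The octamer ATTTGCAT, which POU2F factors bind in immunoglobulin promoters, stood in the Blnk promoter at position -130, counted from the start used for the window. It was present in 1.74% of 32851 promoters of the same length. The EBF motif, TCCC and GGGA a pair of bases apart, stood in the Cd22 window at position -49 from its start inside the gene, and in 0.904% of all promoters. The E-box CAGGTG, a site for E2A, was held by the promoters of Cd79a, Blnk, Cd22 and Jchain and by 20.2% of all promoters. None of the 6 promoters held the ETS-IRF composite, GGAA followed a pair of bases later by GAAA (2.72% of all), the interferon-response pair of GAAA repeats with the same gap (3.44%), the PU.1-type site GAGGAAGT (3.2%) or the STAT site TTCNNNGAA (8.3%). No 2 of the matches shown overlapped. A match describes letters in the window and not binding.

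Per array, 27287 to 31405 probes were well above background and no spot was saturated. Outlier-flagged spots numbered 101 to 279 per array except on the miR-29b array of Dgcr8-deficient mouse 3, which had 1577, and they were left out. Dgcr8 itself had levels of -0.67, -1.02 and -0.35 in Dgcr8-deficient cells with miR-29b, -0.74, -1.24 and -0.15 in Dgcr8-deficient control cells, -0.08, 0.74 and -0.13 in wild-type cells with inhibitors and -0.16, 1 and 0.20 in wild-type control cells. A level here is the log2 processed signal of a gene's brightest probe minus the 75th percentile of its array. The genotypes overlapped narrowly, and the log2 difference between Dgcr8-deficient and wild-type control cells was -1.06 ± 0.38 (SE, limma adjusted p = 0.072, n = 3 each). It passed with the slide (adjusted p = 0.00559) or the scan day (adjusted p = 0.00134) as a block, and with the authors' deposited values (adjusted p = 0.0485). Whether its probe lies in the deleted part is not known here. The 4 Y-linked transcripts summed to 0.0186 and 0.0136 on the miR-29b and control arrays of Dgcr8-deficient mouse 3, in units of each array's 75th percentile. They summed to at least 7.2 on every array of wild-type mice, so the 3 Dgcr8-deficient mice were not alike in these transcripts.

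Between the genotypes, 8 of the 9 genes were higher in Dgcr8-deficient control cells than in wild-type control cells, and Pax5 was not. The rises ran from 2.72-fold for Cd79a to 241-fold for Jchain. Their size depended on the processing. With normexp background correction in place of the scanner's subtraction, Jchain was 38.9-fold higher, Blnk 25.8-fold, Ms4a1 21.0-fold, Spib 4.76-fold and Cd22 4.35-fold, and with the authors' deposited log2 values the same 5 were higher by 67.2-fold, 35.3-fold, 28.6-fold, 6.92-fold and 6.28-fold, in that order. At the same threshold, a limma adjusted p under 0.05 over all 14705 genes, 9.27% of genes were higher and 12.7% were lower. The median log2 difference was 3.83 over the 9 genes and -0.08 over all genes tested. For the same 8 genes, all 6 Dgcr8-deficient arrays lay above all 6 wild-type arrays, as they did for 9.72% of the 14189 genes with a value on every array. These are bulk samples, in which more cells of a type and more RNA per cell cannot be told apart.

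**Figure D1:**
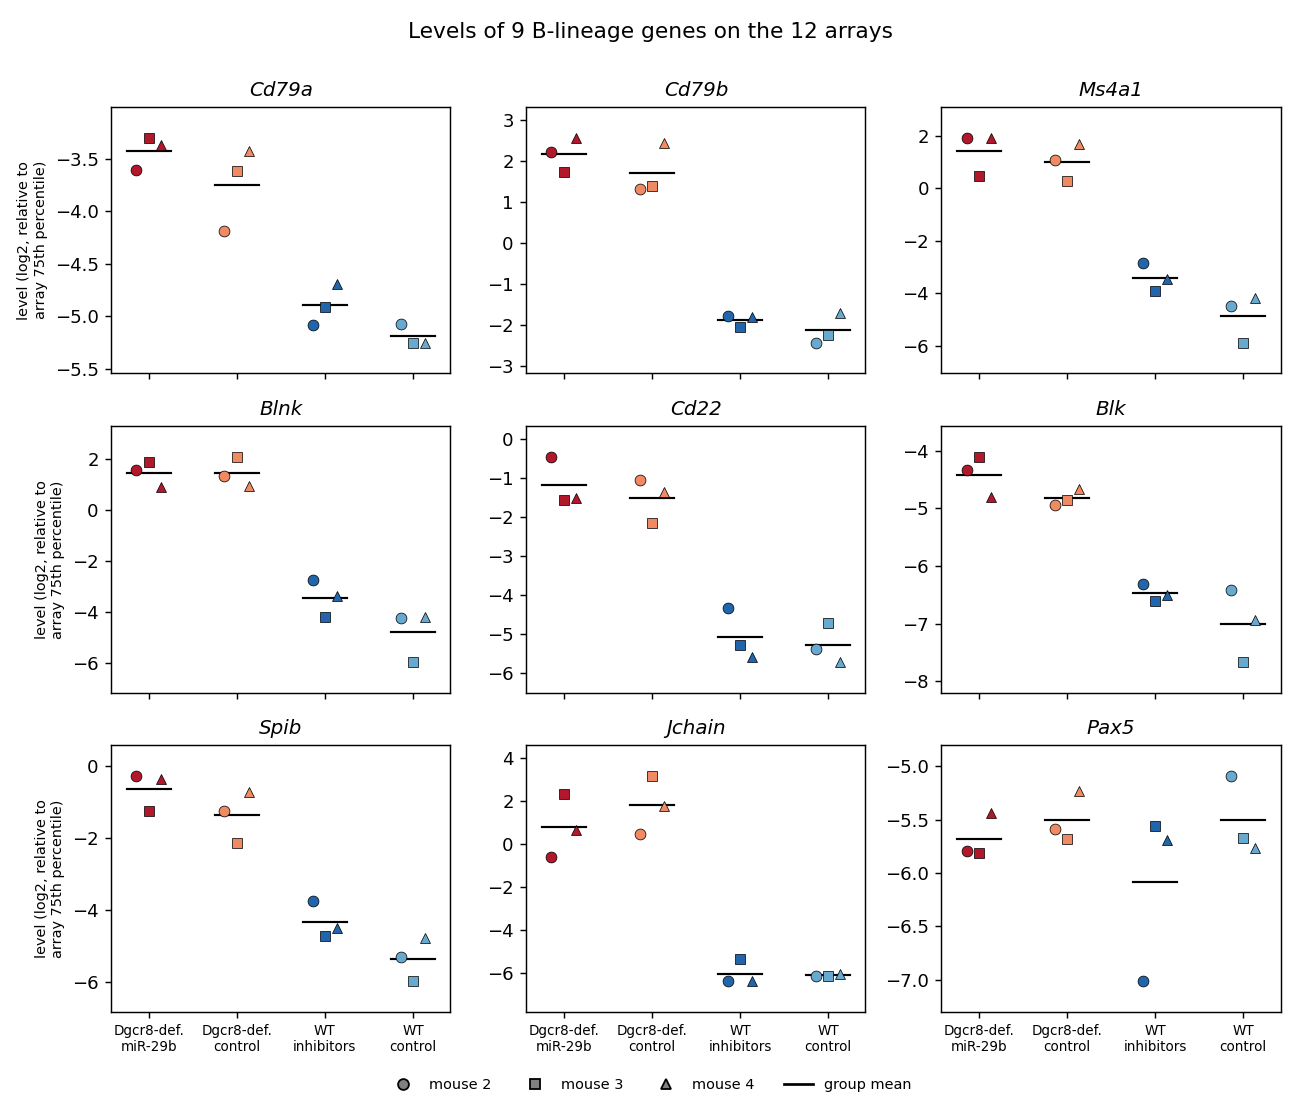
Level of each of the 9 genes (log2, with the array's 75th percentile at 0) on the 12 arrays, with 1 point per array, the shape giving the mouse and the bar the group mean (n = 3). The 6 Dgcr8-deficient arrays lie above the 6 wild-type arrays for every gene but Pax5, whose groups overlap.

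Both signalling chains of the receptor were higher in Dgcr8-deficient cells. They were read by different probes, that of Cd79a being the dimmer, so the sizes are not compared. Cd79b, on chromosome 11, had levels of 2.22, 1.72 and 2.56 in Dgcr8-deficient cells with miR-29b and 1.31, 1.38 and 2.43 in Dgcr8-deficient control cells, against -1.79, -2.05 and -1.80 in wild-type cells with inhibitors and -2.43, -2.24 and -1.70 in wild-type control cells. The lowest Dgcr8-deficient array stood 3.01 log2 units above the highest wild-type array. Cd79b was 14.2-fold higher in Dgcr8-deficient control cells than in wild-type control cells (log2 difference 3.83 ± 0.33 SE, limma adjusted p = 4.37e-05). Its partner Cd79a, on chromosome 7, had levels of -3.61, -3.30 and -3.37 with miR-29b and -4.19, -3.62 and -3.43 in Dgcr8-deficient control cells, against -5.08, -4.91 and -4.69 with inhibitors and -5.07, -5.25 and -5.25 in wild-type control cells. The arrays of the genotypes were separate for Cd79a too, by 0.50 log2 units. The Cd79a difference was 1.44 ± 0.21 (SE), or 2.72-fold, with a limma adjusted p of 0.000883. It was 0.39 with an adjusted p of 0.335 with normexp, so the call for Cd79a depended on that choice.

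Ms4a1 and Cd22, the membrane proteins beside the receptor, were both higher. Ms4a1, on chromosome 19, had levels of 1.90, 0.45 and 1.92 in Dgcr8-deficient cells with miR-29b and 1.08, 0.27 and 1.69 in Dgcr8-deficient control cells, against -2.83, -3.93 and -3.44 in wild-type cells with inhibitors and -4.50, -5.88 and -4.17 in wild-type control cells. Mouse 3 was the lowest of each group, and the genotypes were 3.10 log2 units apart at their closest. Between the control cells the Ms4a1 difference was 5.86 ± 0.56 (SE), or 58.3-fold, with a limma adjusted p of 7.53e-05. Cd22, on chromosome 7, had levels of -0.47, -1.58 and -1.53 with miR-29b and -1.07, -2.15 and -1.37 in Dgcr8-deficient control cells, against -4.34, -5.29 and -5.58 with inhibitors and -5.39, -4.71 and -5.71 in wild-type control cells. All Dgcr8-deficient arrays were at least 2.19 log2 units above the wild-type arrays. The Cd22 difference was 3.74 ± 0.44 (SE), or 13.3-fold, with an adjusted p of 0.000246. The second, dimmer Cd22 probe was not well above background on any of the 3 wild-type control arrays. It averaged -6.30 in Dgcr8-deficient control cells and -8.43 in wild-type control cells, at least 1.35-fold higher by the scanner's subtraction. It did not pass the test (adjusted p = 0.0605 over all probes). Such a bound sets the bright group against the lowest signal well above background on each array of the dim group, or the dim probe's own signal where that is higher.

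The signal transducers, the adaptor Blnk and the kinase Blk, were both higher. Blk lay near background in wild-type cells, so the sizes of the differences are not compared. Blnk, on chromosome 19, had levels of 1.56, 1.87 and 0.89 in Dgcr8-deficient cells with miR-29b and 1.32, 2.08 and 0.94 in Dgcr8-deficient control cells, against -2.75, -4.22 and -3.37 in wild-type cells with inhibitors and -4.24, -5.96 and -4.21 in wild-type control cells. Mouse 3 was the highest Dgcr8-deficient mouse and the lowest wild-type one, numbers that mark different animals, and the genotypes were 3.64 log2 units apart at their closest. The Blnk difference between the control cells was 6.24 ± 0.54 (SE), or 75.8-fold, with a limma adjusted p of 4.31e-05. Blk, on chromosome 14, had levels of -4.33, -4.11 and -4.81 with miR-29b and -4.95, -4.86 and -4.66 in Dgcr8-deficient control cells, against -6.31, -6.60 and -6.50 with inhibitors and -6.42, -7.66 and -6.93 in wild-type control cells. All 6 Dgcr8-deficient arrays were well above background, compared with 2 of 3 wild-type arrays with inhibitors and 1 of 3 wild-type control arrays. The Blk difference was 2.18 ± 0.29 (SE), or 4.54-fold (adjusted p = 0.000541), and 0.23 with normexp (adjusted p = 0.651). As with Cd79a, the call for Blk was lost in that setting.

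The transcription factors differed from each other. Spib, on chromosome 7, had levels of -0.29, -1.27 and -0.37 in Dgcr8-deficient cells with miR-29b and -1.25, -2.16 and -0.74 in Dgcr8-deficient control cells, against -3.77, -4.73 and -4.51 in wild-type cells with inhibitors and -5.32, -5.98 and -4.80 in wild-type control cells. No array of one genotype came within 1.61 log2 units of the other. Between the control cells the Spib difference was 3.98 ± 0.44 (SE), or 15.8-fold, with a limma adjusted p of 0.000184. Pax5, on chromosome 4, had levels of -5.79, -5.81 and -5.44 with miR-29b and -5.59, -5.68 and -5.23 in Dgcr8-deficient control cells, against -7.01, -5.56 and -5.69 with inhibitors and -5.09, -5.67 and -5.76 in wild-type control cells. The groups overlapped for Pax5, and the lowest value was the inhibitor array of wild-type mouse 2. Its difference between the control cells was 0.00 ± 0.36 (SE, adjusted p = 0.999), and its probe was well above background on all 3 arrays of both control groups. The probe was well above background on only 2 of 3 arrays with miR-29b and 2 of 3 with inhibitors. It was dim in every group, with means of -5.68 with miR-29b, -5.50 in Dgcr8-deficient control cells, -6.08 with inhibitors and -5.50 in wild-type control cells. The lack of a call for Pax5 thus rests on a signal near background in both genotypes.

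Jchain, the gene of the secreted antibody joining chain on chromosome 5, showed the largest difference of the 9. Its brighter probe had levels of -0.61, 2.34 and 0.63 in Dgcr8-deficient cells with miR-29b and 0.47, 3.17 and 1.75 in Dgcr8-deficient control cells, against -6.38, -5.38 and -6.39 in wild-type cells with inhibitors and -6.14, -6.16 and -6.05 in wild-type control cells. The Dgcr8-deficient mice were spread widely, with mouse 3 highest and mouse 2 lowest after either transfection, while the wild-type control arrays lay close together. The Jchain difference was 7.91 ± 0.76 (SE), or 241-fold, with a limma adjusted p of 7.41e-05. The dimmer Jchain probe averaged 0.50 in Dgcr8-deficient control cells and -7.79 in wild-type control cells, where it was not well above background on any array. By the scanner's subtraction it was at least 151-fold higher (limma adjusted p = 0.00013 over all probes), a test of its signal against background. The bound holds for that subtraction only. The brighter probe was 38.9-fold higher with normexp and 67.2-fold with the authors' deposited values.

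**Figure D2:**
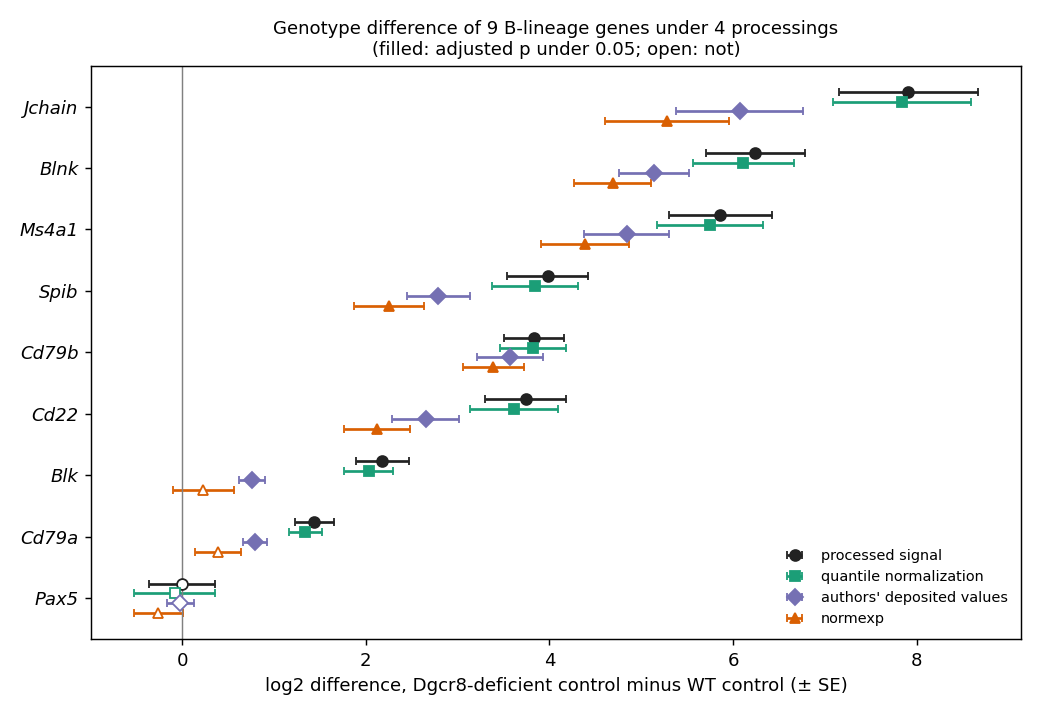
Log2 difference between Dgcr8-deficient control cells and wild-type control cells (± SE, n = 3 each) for the 9 genes, each under 4 processings, with filled marks for an adjusted p under 0.05. Jchain, Blnk and Ms4a1 stand furthest right in all 4, Cd79a and Blk lose the call with normexp, and Pax5 lies near 0.

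Ranked by log2 difference among 14705 genes, Jchain was number 2, Blnk 10, Ms4a1 14, Spib 57, Cd79b 69, Cd22 73, Blk 304, Cd79a 727 and Pax5 6471. Such ranks set different probes side by side, and those of Blk and Pax5 rest on signals near background. The neighbours in that order from Spib to Cd22, at 3.98, 3.83 and 3.74, lay within 1 SE of each other. The arrays lay on 4 slides, of which slides 2 and 4 held control cells of both genotypes, 1 array of each. On slides 2 and 4, in that order, Jchain differed by 6.60 and 7.91, Blnk by 5.55 and 6.89, and Ms4a1 by 5.58 and 7.57. The comparison within slides gave 0.89 and 1.82 for Cd79a, 1.47 and 3.00 for Blk, and -0.51 and 0.43 for Pax5. The other 3 genes were at least 3.34 higher on both slides. Without both arrays of Dgcr8-deficient mouse 3, whose Y-linked transcripts stood apart, 8 of the 9 genes were again called. In that fit 1184 genes in all were called higher and 1834 lower.

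The Dgcr8-deficient mice did not rank alike across these genes. Averaged over both transfections, Jchain was highest in mouse 3 at 2.75, against 1.19 in mouse 4 and -0.07 in mouse 2, a span of 2.82 log2 units. Blnk was also highest in mouse 3, at 1.97, against 1.44 in mouse 2 and 0.91 in mouse 4. Ms4a1 ran the other way, at 0.36 in mouse 3, 1.49 in mouse 2 and 1.81 in mouse 4, and mouse 3 was likewise the lowest for Spib, Cd79b and Cd22. Blk spanned only 0.25 log2 units over the 3 mice. With 3 mice these orders are descriptions, and their relation to the Y-linked difference of mouse 3 was not tested.

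Profiles over all 12 arrays fell along the same lines, given as Pearson's r with no test because all profiles come from the same arrays and, Pax5 apart, the genes differed between the genotypes. Ms4a1 and Spib were each other's closest gene out of all tested (r = 0.995), with r = 0.932 within the 6 Dgcr8-deficient arrays and 0.98 within the 6 wild-type arrays. Mef2c, a transcription factor of B and myeloid cells, was next for Ms4a1 (0.99), and Ly6d was next for Spib (0.987). Jchain was closest to Oasl2, an interferon-induced gene (0.989), and Mzb1, an endoplasmic reticulum chaperone of antibody-secreting cells (0.989). Jchain and Mzb1 had r = 0.975 within the Dgcr8-deficient arrays but 0.215 within the wild-type arrays, and Jchain and Oasl2 had 0.917 and 0.533. The nearest genes were Fcrla, H2bc4 and Dennd6a for Cd79b (0.991 each, but 0.435, 0.67 and -0.004 within the wild-type arrays), Aldh3b1 for Blnk (0.994), Bcar3 for Cd79a (0.986), Rbsn for Cd22 (0.987) and Col9a3 for Blk (0.981). Pax5 had no close partner, its highest r being 0.843 with Lce3f.

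Other genes of the receptor pathway were divided. Of 26 genes of the receptor complex and its signalling beyond the 9, 12 were higher in Dgcr8-deficient control cells than in wild-type control cells, 1 was lower and 13 did not pass. Over all genes 9.27% were higher and 12.7% lower. The median log2 difference of the list was 0.54. The kinases Syk (2.27 ± 0.45, limma adjusted p = 0.00459) and Btk (2.15 ± 0.33, adjusted p = 0.0011) and the phospholipase Plcg2 (1.64 ± 0.31, adjusted p = 0.00379) were higher, although Syk was at 1.15 (adjusted p = 0.0636) and Btk at 0.73 (adjusted p = 0.107) with normexp. Fcrla, an intracellular Fc receptor-like protein of B cells, and Rasgrp3, an activator of Ras, were not well above background on any wild-type control array. Both were well above background on all 3 Dgcr8-deficient control arrays, which sufficed for the filter. Their adjusted p-values thus set a signal against background and not against a measured level. Fcrla averaged -3.14 in Dgcr8-deficient control cells and -8.79 in wild-type control cells, at least 12.1-fold higher by the scanner's subtraction (adjusted p = 5.77e-06), but 2.5-fold with normexp (adjusted p = 0.024). Rasgrp3 averaged -2.95 in Dgcr8-deficient control cells and -6.80 in wild-type control cells, at least 13.1-fold higher by the scanner's subtraction (adjusted p = 0.000149), but 2.27-fold with normexp (adjusted p = 0.0303). Hvcn1, a proton channel of B cells, fell by 0.82 log2 units (adjusted p = 0.00287). The call held in all 6 fits that left out 1 array (-0.87 to -0.76). It was lost with both arrays of each mouse averaged (-0.30, adjusted p = 0.277). That average mixes the control array with the other transfection, and Hvcn1 rose with miR-29b (0.97, limma adjusted p = 0.01). Cr2, complement receptor 2, was at -0.21 ± 0.42 (adjusted p = 0.809).

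Among 16 tested transcription factors of the lineage other than Spib and Pax5, 6 were higher, 2 were lower and 8 did not pass. Over all genes 9.27% were higher and 12.7% lower, so the share of lower genes was near that of all genes. The median was 0.52. Mef2c averaged -2.25 in Dgcr8-deficient control cells and -7.95 in wild-type control cells, where no array was well above background. It was at least 22.4-fold higher by the scanner's subtraction (limma adjusted p = 3.91e-05), but 3.46-fold with normexp (adjusted p = 0.00391). Both tests set its signal against background. Irf4 and Irf8, factors that T cells also make, were higher by 1.86 ± 0.36 (adjusted p = 0.00401) and 1.78 ± 0.27 (adjusted p = 0.00109). Ebf1, which specifies the lineage with Pax5, averaged -6.17 in Dgcr8-deficient control cells, where 2 of 3 arrays were well above background, and -8.54 in wild-type control cells, where none was. By the scanner's subtraction it passed (adjusted p = 0.0103), a test of its signal against background. No bound on its size is given, since not all Dgcr8-deficient control arrays were well above background. The adjusted p was 0.0547 after quantile normalization, 0.106 with the authors' deposited values and 0.91 with normexp, where the difference was -0.06. Id3, an inhibitor of E proteins that T cells make, fell by 3.04 log2 units (adjusted p = 0.000624) and Tcf3, the gene of E2A, fell by 0.56 (adjusted p = 0.0385). Pou2af1, the co-activator of the octamer factors, was at 0.54 ± 0.57 (adjusted p = 0.592).

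Of 17 tested B cell surface genes, 8 were higher, 1 was lower and 8 did not pass. The counts of this list and of the plasma cell list stand against 9.27% of all genes higher and 12.7% lower. The median was 1.72. The list also held 3 genes with probes above background on 2 arrays at most and 6, among them Ighm, that are not analysed here. Ly86, the partner of RP105, was higher by 3.88 ± 0.49 (limma adjusted p = 0.000352), Ly6d by 3.43 ± 0.43 (adjusted p = 0.000331), Vpreb3 by 3.12 ± 0.35 (adjusted p = 0.00019) and Cd24a by 1.79 ± 0.22 (adjusted p = 0.000287). With normexp Ly86 was at 2.16, Ly6d at 2.31 and Vpreb3 at 2.28, all still called. Vpreb1, a surrogate light chain gene of B cell precursors, fell by 1.69 log2 units (adjusted p = 0.00201, and 0.0564 with outlier-flagged spots kept). The chemokine receptor gene Cxcr5 was at -0.39 ± 0.33 (adjusted p = 0.484). In the plasma cell list, 3 of 9 tested genes were higher, none was lower and 6 did not pass. Mzb1 was 50.3-fold higher (5.65 ± 0.47, adjusted p = 3.52e-05, and 21.1-fold with normexp), Ell2, an elongation factor of antibody secretion, was higher by 1.62 ± 0.19 (adjusted p = 0.000227) and Prdm1, which activated T cells also make, by 1.24 ± 0.39 (adjusted p = 0.0432).

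Markers of other cells were divided, and their counts stand against 9.27% of all genes higher and 12.7% lower. Of 9 MHC class II genes, which B cells, dendritic cells and macrophages all carry, 8 were higher, none was lower and 1 did not pass. H2-Aa was 33.9-fold higher (5.08 ± 0.35, limma adjusted p = 1.06e-05, and 8.69-fold with normexp) and Cd74, the invariant chain, 27.3-fold (4.77 ± 0.34, adjusted p = 1.34e-05), with H2-Ab1 at 2.66 ± 0.27 (adjusted p = 9.93e-05) and H2-DMb1 at 1.63 ± 0.22 (adjusted p = 0.000597). The plasmacytoid dendritic cell list had 5 of 11 higher, none lower and 6 not past the threshold. Tcf4 was at 2.15 ± 0.37 (adjusted p = 0.00224), Ccr9 at 1.28 ± 0.28 (adjusted p = 0.00886), Tlr7 at 1.1 ± 0.18 (adjusted p = 0.00149) and Bst2 at 1.06 ± 0.27 (adjusted p = 0.0177). Siglech, the defining marker of those cells in mice, was not well above background on any of the 12 arrays. Of 16 myeloid and dendritic cell genes, 3 were higher, 3 were lower and 10 did not pass. Itgax averaged -4.59 in Dgcr8-deficient control cells and -7.20 in wild-type control cells, where no array was well above background. It was at least 4.18-fold higher by the scanner's subtraction (adjusted p = 0.00941), a test of its signal against background. Tyrobp was higher by 2.55 ± 0.64 (adjusted p = 0.0168). Adgre1, a macrophage surface receptor, fell by 2.72 (adjusted p = 0.00348) and Ccr2 by 3.41 (adjusted p = 0.00512), while Lyz2 was above background on 1 array. Among 12 NK cell genes, 3 were higher, none was lower and 9 did not pass. Eomes was at 4.61 ± 0.22 (adjusted p = 1.84e-06), Klrk1 at 3.52 ± 0.64 (adjusted p = 0.00302) and Klra7 at 2.85 ± 0.68 (adjusted p = 0.0131).

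The listed T cell identity genes were well above background in the control cells of both genotypes. In bulk RNA this does not give the make-up of the cultures, which was not tested. Of 18 genes of T cell identity, 1 was higher, 3 were lower and 14 did not pass, against 9.27% of all genes higher and 12.7% lower. The median was -0.15. Cd3e had levels of 1.73, 1.86 and 3.16 in Dgcr8-deficient control cells and 2.03, 3.32 and 2.15 in wild-type control cells, and Cd4 had -0.37, -0.09 and 0.17 in Dgcr8-deficient control cells and -0.19, -0.38 and -0.20 in wild-type control cells. Both overlapped between the genotypes, with differences of -0.25 ± 0.56 (limma adjusted p = 0.83) and 0.16 ± 0.19 (adjusted p = 0.638). Trat1, a T cell receptor adaptor, fell by 3.96 log2 units (adjusted p = 0.000339), Lck by 0.67 (adjusted p = 0.0384) and Lat by 0.55 (adjusted p = 0.0299), and Cd28 was higher by 1.25 ± 0.40 (adjusted p = 0.0464). The CD8 gene Cd8a was at 0.26 ± 0.38 (adjusted p = 0.723). The calls for Cd28, Lck, Lat, Prdm1 and Tcf3 each held in 1 of the 6 fits that left out 1 array of either group, those for Bst2 and Tyrobp in 3, and that for Klra7 in 5. With normexp the calls for Ccr9 (0.38), Tlr7 (0.30), Itgax (0.26), Klrk1 (0.63) and Klra7 (0.68) were lost. Those for Prdm1 (1.02), Lck (-0.61), Lat (-0.49) and Tcf3 (-0.49) were lost in that setting too. Eomes (3.22), Tyrobp (1.46) and Adgre1 (-1.33) passed with smaller differences. With both arrays of each mouse averaged the calls for Bst2 (0.82), Prdm1 (0.75), Lck (-0.39), Lat (-0.39) and Tcf3 (-0.29) were lost. That setting mixes control arrays with miR-29b or inhibitor arrays, so it is not a comparison of control cells alone.

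Summed over the tested genes with a value, in units of each array's 75th percentile, the 9 B-lineage genes reached 13.7 to 14.4 in Dgcr8-deficient cells with miR-29b and 9.47 to 17.6 in Dgcr8-deficient control cells, against 0.513 to 0.762 in wild-type cells with inhibitors and 0.363 to 0.54 in wild-type control cells. The ranges were far apart. The other receptor and signalling genes overlapped, at 150 to 184 in Dgcr8-deficient control cells and 116 to 159 in wild-type control cells, as did the other transcription factors of the lineage, at 50.5 to 64.4 in Dgcr8-deficient control cells and 52.3 to 56.7 in wild-type control cells. B cell surface genes did not, at 10.2 to 17.0 in Dgcr8-deficient control cells and 5.37 to 8.39 in wild-type control cells. MHC class II genes reached 20.1 to 37.0 in Dgcr8-deficient control cells and 7.28 to 10.3 in wild-type control cells, and plasma cell genes 10.4 to 14.8 in Dgcr8-deficient control cells and 5.16 to 6.23 in wild-type control cells. Plasmacytoid dendritic cell genes summed to 35.1 to 43.9 in Dgcr8-deficient control cells and 27.3 to 31.7 in wild-type control cells. The MHC class II, plasma cell and plasmacytoid dendritic cell lists were separate between the control groups as well, as were the T cell identity and NK cell lists. Such a sum is carried by the brightest probes of its list. In the plasmacytoid dendritic cell list these were Bst2 and Ptprs, with mean levels of 4.55 and 3.39 in Dgcr8-deficient control cells. T cell identity genes summed to 491 to 539 in Dgcr8-deficient control cells and 559 to 662 in wild-type control cells, but to 662 to 714 in Dgcr8-deficient cells with miR-29b. Myeloid and dendritic cell genes overlapped, at 7.10 to 11.9 in Dgcr8-deficient control cells and 4.93 to 10.6 in wild-type control cells. NK cell genes reached 19.7 to 34.0 in Dgcr8-deficient control cells and 8.69 to 15.5 in wild-type control cells, yet 7.61 to 20.4 with miR-29b. The brightest NK cell probes were Nkg7 and Gzma, with mean levels of 4.2 and 1.95 in Dgcr8-deficient control cells. Neither passed between the control groups (limma adjusted p = 0.0854 and 0.755) or with miR-29b (limma adjusted p = 0.0991 and 0.899). Whether other cells in the cultures had a part in the rise of the 8 genes was not tested.

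In the fit that did not pair the arrays of a mouse, adding miR-29b back to Dgcr8-deficient cells moved none of the 9 genes past the threshold. In this comparison 1.01% of genes (149) were higher and 1.19% (175) lower by limma, a split of 80 and 151 with normexp and of 150 and 269 after quantile normalization, and 2118 genes, none of the 9 among them, had an unadjusted p under 0.05. Jchain was lower with miR-29b in each mouse, by -1.07, -0.83 and -1.12 log2 units in mice 2, 3 and 4. The mice changed by nearly the same amount although their Jchain levels lay far apart. The change averaged -1.01 ± 0.76 (SE, limma adjusted p = 0.639), and with the mouse as a block it was -1.01 ± 0.22 and passed (adjusted p = 0.0258). With that block 13.1% of all genes were higher and 9.44% lower. With the slide as a block, which pairs the same Dgcr8-deficient arrays as the mouse does, the adjusted p was 0.042, and with the scan day as a block it was 0.479. With 1 array left out and no block the change ran from -1.78 to -0.31. The dimmer Jchain probe changed by -1.02 ± 0.80 without the block.

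Spib was higher with miR-29b in each mouse, by 0.96, 0.89 and 0.38, with a mean of 0.74 ± 0.44 (SE, limma adjusted p = 0.519, and 0.0842 with the mouse as a block). Cd79b changed by 0.91, 0.34 and 0.13, Ms4a1 by 0.82, 0.18 and 0.23, and Cd79a by 0.57, 0.32 and 0.07. These 4 genes were above the control array in all 3 mice, as were 38.5% of all genes, and Jchain and Pax5 were below it in all 3, as were 21.6%. Pax5 changed by -0.19, -0.12 and -0.21. Blnk changed by 0.25, -0.21 and -0.05, Cd22 by 0.60, 0.57 and -0.16, and Blk by 0.62, 0.74 and -0.15, so these 3 genes differed in sign between mice. Of the listed genes outside the 9, Hvcn1 (0.97, adjusted p = 0.01) and H2-DMb1 (1.28, adjusted p = 0.0197) rose with miR-29b and Eomes fell by 1.11 (adjusted p = 0.0277).

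**Figure D3:**
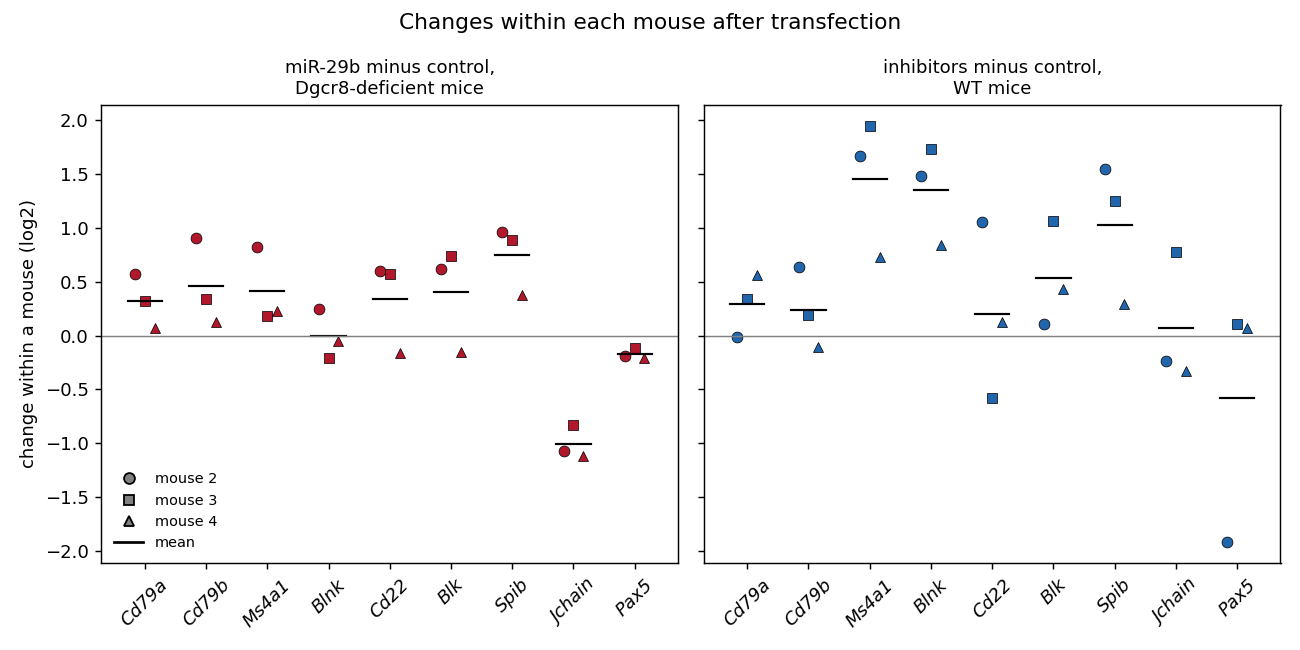
Change of each of the 9 genes within each mouse (log2), for miR-29b minus control in Dgcr8-deficient mice on the left and inhibitors minus control in wild-type mice on the right, with the bar at the mean of 3 mice. Jchain lies near -1 in all 3 Dgcr8-deficient mice, and Ms4a1, Blnk and Spib lie above 0 in all 3 wild-type mice.

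Blocking miR-29 in wild-type cells also moved none of the 9 genes past the threshold, and limma called 0 genes in all (0% in either direction). At an unadjusted p under 0.05 there were 61 of the 14705 genes tested, of which Ms4a1, Blnk and Spib were 3. That fit did not use the pairing of arrays within a mouse. Ms4a1 was higher with inhibitors by 1.67, 1.95 and 0.73 log2 units in mice 2, 3 and 4, with a mean of 1.45 ± 0.56 (SE, unadjusted p = 0.0268, limma adjusted p = 1). Blnk was higher by 1.48, 1.73 and 0.84, with a mean of 1.35 ± 0.54 (unadjusted p = 0.0296, limma adjusted p = 1). Spib was higher by 1.55, 1.25 and 0.29, with a mean of 1.03 ± 0.44 (unadjusted p = 0.0415, limma adjusted p = 1). In each of the 3 genes mouse 4 changed least. With normexp the mean changes were only 0.56 for Ms4a1, 0.49 for Blnk and 0.20 for Spib, and Ms4a1 was at 0.85 with the authors' deposited values. With the mouse as a block the adjusted p was 0.902 for Ms4a1, 0.587 for Blnk and 1 for Spib, so none was called.

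Blk was the fourth gene above its control in all 3 wild-type mice, by 0.11, 1.06 and 0.43, and its probe was well above background on 2 of 3 inhibitor arrays and 1 of 3 control arrays. This held for 14.7% of all genes, and none of the 9 genes was below its control in all 3 mice, as 8.87% of genes were. Cd79b changed by 0.64, 0.19 and -0.11, Cd79a by -0.01, 0.34 and 0.56, Cd22 by 1.05, -0.58 and 0.13, and Jchain by -0.24, 0.78 and -0.33. Pax5 changed by -1.92, 0.11 and 0.07. The Pax5 mean of -0.58 ± 0.36 (limma adjusted p = 1) thus rested on mouse 2.

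The changes with miR-29b and with inhibitors were then set against each other. Without the mouse as a block, the difference between them, miR-29b effect minus inhibitor effect, passed for none of the 9 genes. Of all genes 0.0136% (2) were higher and 0.15% (22) lower, a split of 22 and 70 with the authors' deposited values. For Blnk the difference was -1.36 ± 0.76 (SE, limma adjusted p = 0.859), and -0.49 with normexp (adjusted p = 0.873). With the mouse as a block it was -1.36 ± 0.26 with an adjusted p of 0.0409, and 2.6% of all genes were then higher and 3.54% lower.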

How the data were processed

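The authors deposited scanner files with spot intensity in arbitrary units, extracted with Agilent Feature Extraction 10.5.1.1 per the file headers. A log2 table deposited by the authors was made with limma per the labels, whose version and steps are not given in the sources used here. Its column medians were 6.95 to 6.96 and its direction followed the spot signal, but its centring stays unknown. Levels were the log2 of the background-subtracted processed signal less the array's 75th percentile over non-control spots, without outlier-flagged spots. Probes well above background on at least 3 of 12 arrays were kept (32200), each gene taking its brightest probe (14705 genes). Of 41174 probes, 24844 matched a RefSeq symbol by accession. Genes without a match are not analysed here.

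The test was limma 3.58.1 in R 4.3.3 over all 12 arrays and 4 groups, Benjamini-Hochberg adjusted over all genes and checked on simulated data. Alternatives were normexp (offset 50, on median signals, since the files held no mean signal), quantile normalization, the authors' log2 values, other filters and probe rules, slide, scan day or mouse as a block, and each array left out. The design says that cells of each mouse were divided, and deviations of its arrays correlated at 0.611 to 0.746 (Dgcr8-deficient) and 0.418 to 0.726 (wild type).

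The 9 genes and the gene lists were chosen with earlier results of these data known. Named genes were the 9, Dgcr8, up to 4 genes per list with the smallest p between genotypes, a few set markers, and the closest genes by Pearson's r. Tnfrsf17 and Nkg7, which did not pass, are left out, apart from Nkg7 in the summed levels. Syk, Plcg2, Ly86, Hvcn1, Tcf3, Vpreb1, Cr2, Cxcr5 and Pou2af1 were named after their values were seen. A few genes that the rule names are not reported here.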

Additional observations from a re-analysis of the deposited data

Results flagged for a closer look

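Blnk was flagged because its change with miR-29b in Dgcr8-deficient cells and its change with inhibitors in wild-type cells differed by a test of the difference itself. The difference was -1.36 log2 units with the mouse as a block (limma adjusted p = 0.0409), the changes being 0.00 with miR-29b and 1.35 with inhibitors. Without the block the same difference had an adjusted p of 0.859. With normexp and no block it was -0.49 (adjusted p = 0.873).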

How the results depend on the processing

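The 8 genotype calls kept their direction in all alternatives that tested the gene, and Blnk, Ms4a1, Jchain, Spib and Cd79b also passed in all of those. Cd79a (0.39) and Blk (0.23) lost the call with normexp, and Cd22 with its dimmer probe (2.12). Requiring probes above background on all 12 arrays left 6 of the 9 called because Blk, Jchain and Pax5 were then not tested. Leaving out 1 array gave 8 of the 9 genes called each time and 2332 to 2776 genes in all. With slide or scan day as a block 6320 and 5848 genes were called, against 3232 without. Pax5 stayed uncalled and changed sign with normexp (-0.26), quantile normalization (-0.08), the authors' values (-0.02) and over the left-out arrays (-0.13 to 0.21). Other changes of sign were Ebf1 with normexp (-0.06), Cd3e (-0.70 to 0.16), Cr2 (-0.62 to 0.03) and Cd8a (-0.12 to 0.54) over the left-out arrays, and Cd8a with slide as a block (-0.11) and without both arrays of Dgcr8-deficient mouse 3 (-0.12). The last setting was chosen after seeing the data.

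For miR-29b, 324 genes were called, none of the 9. The counts were 3321 with the mouse as a replicate block and 2706 with slide as a block, each with 1 of the 9 (Jchain). They were 1931 with scan day as a block, 571 with the authors' values, 177 with each probe tested, 117 without Dgcr8-deficient mouse 3, 0 with only the arrays compared and 92 to 272 with 1 array left out, 92 being without the control array of mouse 2. Pax5 was at 0.14 with normexp and Blnk at 0.10 without mouse 3, and over the left-out arrays Blnk ran from -0.26 to 0.31 and Cd22 from -0.03 to 0.57. For inhibitors, normexp gave 0.56 for Ms4a1, 0.49 for Blnk and 0.20 for Spib, and turned the sign to -0.08 for Cd79a, -0.13 for Cd22, -0.12 for Blk and -0.15 for Jchain, and the left-out arrays gave -0.16 to 0.48 for Cd22 and -0.26 to 0.24 for Jchain. For the difference of both effects, 24 genes were called, against 904 with the mouse as a replicate block (1 of the 9, Blnk), 92 with the authors' values, 57 with probes above background on all arrays, 39 after quantile normalization, 12 with no filter, 7 with the mean of a gene's probes and 3 to 46 with 1 array left out. The replicate block changed no other call on the 9 genes. The causes of these shifts were not tested. Blk and the dimmer Cd22 and Jchain probes lay near background in wild-type cells, which limits their differences to bounds or to a few arrays. The Pax5 probe lay near background in every group, which limits what its lack of a call shows.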
